A study of Mus musculus with 8 samples.

Results

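The genes followed here mark the state of a tumor cell between an epithelial and a mesenchymal form, and they were measured in 8 subcutaneous Lewis lung carcinoma (LLC) tumors, formed by a mouse lung cancer line transplanted beneath the skin. They are the 10 rows of the raw count table whose Ensembl identifier maps to Cdh1, Epcam, Cdh2, Vim, Fn1, Snai1, Snai2, Zeb1, Zeb2 or Twist1, out of 55487 rows in all. One group of 4 tumors grew from wild-type LLC cells and the other group of 4 from LLC cells labelled Ago2 knock-out, written ΔAgo2 by the study, and all were taken, per the study's text, at day 12 from syngeneic C57BL/6J mice, 1 tumor per library. The study's methods give female mice of 6 to 8 weeks, and no drug is named in the labels of either group. Ago2 was targeted with CRISPR delivered by lentivirus, and 1 single-cell clone was chosen for engraftment, so genotype and clone cannot be told apart. The host mice kept Ago2, so a tumor of the knock-out group still held host cells with the gene. The comparison asked here is whether these genes differ between wild-type and ΔAgo2 tumors.

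Epithelial cells hold together through E-cadherin, encoded by Cdh1, and carry the adhesion molecule Epcam. In the epithelial-mesenchymal transition these are lowered while N-cadherin (Cdh2), the intermediate filament vimentin (Vim) and the matrix protein fibronectin (Fn1) are raised, and cells become more motile. The zinc-finger repressors Snai1, Snai2, Zeb1 and Zeb2 and the basic helix-loop-helix factor Twist1 act at E-box motifs, among others in the Cdh1 promoter. Ago2 is the protein that holds microRNAs, small RNAs that pair through their seed (bases 2 to 8) with target transcripts, and the miR-200 family is known for holding Zeb1 and Zeb2 low in epithelial cells.

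Because Ago2 carries microRNAs, the sequences of 6 mature microRNAs known from work on this transition are shown, with the seed in capitals, as listed by RefSeq on GRCm38.p6. They were not measured in these libraries.
mmu-miR-200b-3p: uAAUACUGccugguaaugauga
mmu-miR-200a-3p: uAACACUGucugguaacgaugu
mmu-let-7a-5p: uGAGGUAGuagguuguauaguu
mmu-miR-34a-5p: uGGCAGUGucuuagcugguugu
mmu-miR-30a-5p: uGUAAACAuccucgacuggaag
mmu-miR-205-5p: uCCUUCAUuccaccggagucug

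A perfect match to seed bases was searched in the longest annotated 3′ UTR of each of the 10 genes (GENCODE M21, GRCm38). Zeb1 held 10 matches to the 6 seeds in 2401 bases, Zeb2 9 in 4941, Snai2 3 in 1089 and Fn1 2 in 692, and Snai1 also held matches. Cdh1, Epcam, Cdh2, Vim and Twist1 held none. The miR-200b-3p match, CAGTATT, occurred 5 times in Zeb1 and 5 times in Zeb2, while 13.3% of 20984 3′ UTRs held at least 1. The 5 in Zeb2 are shown with 8 bases on each side and the match in capitals, because this gene is the one of the pair with the larger difference below.
Zeb2, chr2:44988166-44988188, minus strand: ccatacatCAGTATTttattatt
Zeb2, chr2:44988101-44988123, minus strand: cagtgcatCAGTATTacgattcc
Zeb2, chr2:44987739-44987761, minus strand: acccgtgtCAGTATTagacgact
Zeb2, chr2:44987654-44987676, minus strand: aattttgtCAGTATTacaccaaa
Zeb2, chr2:44987520-44987542, minus strand: gtagtgtaCAGTATTatagttct
The miR-200a-3p match, CAGTGTT, occurred 4 times in Zeb1, 4 times in Zeb2, and once each in Fn1 and Snai2, against 17.2% of 3′ UTRs with at least 1. Other matches included those to miR-205-5p (1 in Zeb1), miR-34a-5p (1 in Snai1), miR-30a-5p (1 each in Snai1 and Snai2) and miR-200b-3p (1 each in Fn1, Snai1 and Snai2). In Snai2 the miR-200a-3p and miR-30a-5p matches overlap. Matches describe letters and not use of a site.

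RefSeq promoters, from 250 bases before to 50 after a transcription start, were at hand for 5 of the 10 genes (Epcam, Vim, Snai1, Zeb2 with 4 starts, and Twist1) on GRCm38.p6. The E-box CACCTG or its complement CAGGTG was present in 20.2% of 32817 promoters. Epcam held 2, beginning 187 and 19 bases before the start, and Snai1 held 1, beginning 126 bases before it. The windows of Vim and Twist1 and all 4 of Zeb2 held none of these letters. The 2 promoters with a match are shown with it in capitals, because E-boxes are the motifs these factors are known to bind.
Epcam, chr17:87635729-87636028, plus strand: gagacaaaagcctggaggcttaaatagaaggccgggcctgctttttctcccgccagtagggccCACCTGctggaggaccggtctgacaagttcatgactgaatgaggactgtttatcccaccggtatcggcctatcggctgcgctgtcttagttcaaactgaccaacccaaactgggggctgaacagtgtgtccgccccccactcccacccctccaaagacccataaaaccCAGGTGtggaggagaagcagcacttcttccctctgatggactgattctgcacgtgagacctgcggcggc
Snai1, chr2:167537945-167538244, plus strand: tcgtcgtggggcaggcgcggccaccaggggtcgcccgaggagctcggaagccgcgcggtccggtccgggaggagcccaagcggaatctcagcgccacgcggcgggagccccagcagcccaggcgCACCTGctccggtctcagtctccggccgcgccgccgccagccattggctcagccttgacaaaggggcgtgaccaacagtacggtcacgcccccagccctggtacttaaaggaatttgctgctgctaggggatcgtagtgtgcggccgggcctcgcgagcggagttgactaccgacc

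Library totals ran from 7903288 counts in wild-type tumor 4 to 268564145 in ΔAgo2 tumor 4, a 34-fold range, and 3 counts correspond to 0.430 and 0.0105 CPM (counts per TMM-scaled library total) in those libraries. Ago2 itself (ENSMUSG00000036698.11 in the count table) was 129.9, 195.0, 151.3 and 138.5 CPM in wild-type tumors 1 to 4 and 118.3, 354.7, 215.0 and 270.1 CPM in ΔAgo2 tumors 1 to 4. The groups overlap and its level was no lower in the knock-out group (log2 fold change 0.64 ± 0.30 SE, edgeR adjusted p = 0.205), and a CRISPR cut need not lower a transcript, so its level does not check the labels. The libraries differed in 2 features that touch the genes below, keratinocyte and muscle markers. The summed level of 16 skin keratinocyte markers was 742, 770, 21.9 and 226 CPM in wild-type tumors 1 to 4 and 740, 648, 1220 and 1228 CPM in ΔAgo2 tumors 1 to 4. Wild-type tumor 3 also carried 3235 CPM of 8 skeletal muscle markers, against 233.5 to 439 in the other wild-type tumors. The ΔAgo2 tumors had 45.9 to 193 CPM, so the groups do not overlap. All 8 muscle markers had negative log2 fold changes, and edgeR called 0 of them. In whole tumors, fewer cells of a type and less RNA per cell cannot be told apart.

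Of the 10 genes, 1 passed the test between genotypes, Twist1, which fell in ΔAgo2 tumors. The test was edgeR's quasi-likelihood test at a Benjamini-Hochberg adjusted p of 0.05 over 16061 genes. All 10 genes passed the count filter. Over all genes tested, 3.49% were called, 1.36% higher and 2.12% lower in ΔAgo2 tumors, so 1 in 10 rests on a single gene. By the DESeq2 Wald test 4 of the 10 were called (Cdh1, Epcam, Snai1 and Twist1), against 14.3% of all genes, and by limma voom with quality weights 3 of the 10 (Cdh1, Zeb2 and Twist1), against 27.9%. The CPM ranges of the 2 groups did not overlap for 3 of the 10 genes, Cdh1, Snai1 and Twist1, and the same held for 16.4% of all genes tested. In TPM, where each library sums to the same total after division by gene length, only Twist1 kept groups that do not overlap among the 10.

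**Figure D1:**
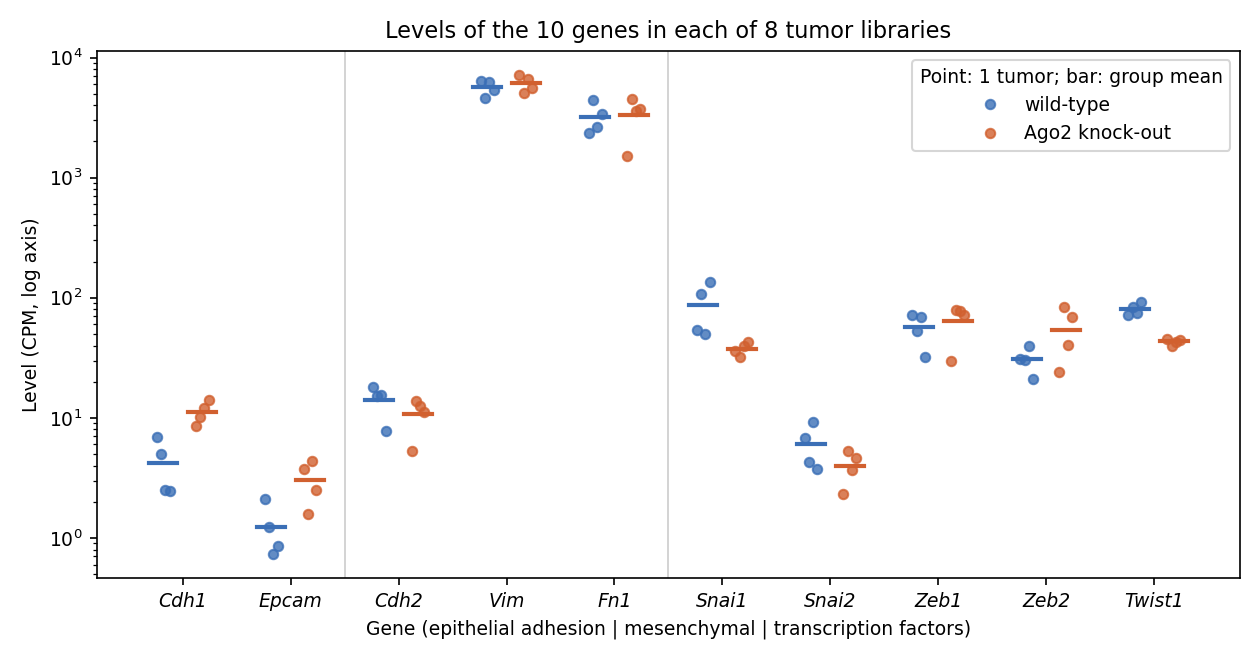
Level of each of the 10 genes in CPM (log axis) in 4 wild-type (blue) and 4 ΔAgo2 (orange) tumors, 1 point per tumor and a bar at the group mean. Cdh1, Snai1 and Twist1 have groups that do not overlap, and Vim and Fn1 lie far above the other genes in both groups.

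Cdh1 (ENSMUSG00000000303.12, chr8:106603351-106670246, plus strand) was higher in each ΔAgo2 library than in any wild-type one, without passing the test. Its level was 6.91, 5.01, 2.50 and 2.44 CPM in wild-type tumors 1 to 4 and 8.49, 10.2, 12.1 and 14.0 CPM in ΔAgo2 tumors 1 to 4. Wild-type tumors 3 and 4 were lowest and ΔAgo2 tumor 4 highest, and the groups do not overlap. The mean was 4.21 ± 2.16 CPM (SD, n = 4) in wild-type and 11.2 ± 2.38 (SD, n = 4) in ΔAgo2 tumors, a fitted 2.61-fold difference with a 95% confidence interval of 1.49 to 4.55 (log2 fold change 1.38 ± 0.36 SE, edgeR adjusted p = 0.0629). The DESeq2 Wald test put it past the threshold with a similar value (1.37, adjusted p = 0.00483). Over all 23 alternatives the value lay between 0.89 and 1.75, and 5 passed the threshold.

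Epcam (ENSMUSG00000045394.9, chr17:87635979-87651129, plus strand), the epithelial cell adhesion molecule, differed in the same direction at a lower level. It was 2.10, 1.24, 0.736 and 0.860 CPM in wild-type and 3.71, 1.57, 4.36 and 2.53 CPM in ΔAgo2 tumors 1 to 4. ΔAgo2 tumor 2 lies within the wild-type range, so the groups overlap. The fitted difference was 2.39-fold (95% confidence interval 1.20 to 4.75, log2 fold change 1.26 ± 0.45 SE, edgeR adjusted p = 0.119). Only 6 counts stand behind the value of wild-type tumor 4, and 722 behind that of ΔAgo2 tumor 4. Epcam is also known from Langerhans cells. The 2 other genes listed for that cell type were Cd207 and Cd1d1, and Cd1d1 made up most of their sum. That sum was 0.717 to 2.06 CPM in wild-type and 2.30 to 2.65 CPM in ΔAgo2 tumors, with no overlap. Each marker alone did overlap, Cd207 at 0 to 0.394 against 0.298 to 0.567 CPM and Cd1d1 at 0.717 to 1.81 against 1.73 to 2.13 CPM. Neither passed the test (edgeR adjusted p = 0.231 and 0.423), and 0 to 21 counts stood behind Cd207 in wild-type tumors.

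Skin keratinocytes express Cdh1, and their markers differed between the groups in the same direction as Cdh1 and Epcam. All 16 keratinocyte markers had a positive log2 fold change, with a median of 1.66 against 0.04 over all genes tested, and 2 of them, Krt10 and Ivl, passed the test. The defining basal keratins were not called. Krt5 was 2.54 to 114.7 CPM in wild-type and 79.8 to 174.5 in ΔAgo2 tumors, and Krt14 was 2.35 to 357 and 204 to 446. The 2 libraries lowest in Cdh1, wild-type tumors 3 and 4, were also lowest in these markers. Among the libraries of similar marker level, wild-type tumors 1 and 2 (742 and 770 CPM) had Cdh1 at 6.91 and 5.01 CPM, whereas ΔAgo2 tumors 1 and 2 (740 and 648 CPM) had 8.49 and 10.2. Without Krt14, the most abundant marker, these 4 sums were 423, 413.2, 510.3 and 444.3 CPM in that order, so the ΔAgo2 tumors were then the higher. Over all 8 libraries the sums without Krt14 were 19.55 to 423.0 CPM in wild-type and 444.3 to 794.1 CPM in ΔAgo2 tumors. These groups do not overlap, as those of Cdh1 do not. Of the 16 markers, 7 had groups that do not overlap, against 16.4% of all genes tested. For Epcam the same 4 libraries had 2.10, 1.24, 3.71 and 1.57 CPM, which overlap. With wild-type tumors 3 and 4 left out, a choice made after the data were seen, the log2 fold change of Cdh1 was 0.89 (edgeR adjusted p = 0.203) and that of Epcam 0.84 (edgeR adjusted p = 0.373). The part of keratinocyte RNA in either difference was not tested beyond these values.

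**Figure D2:**
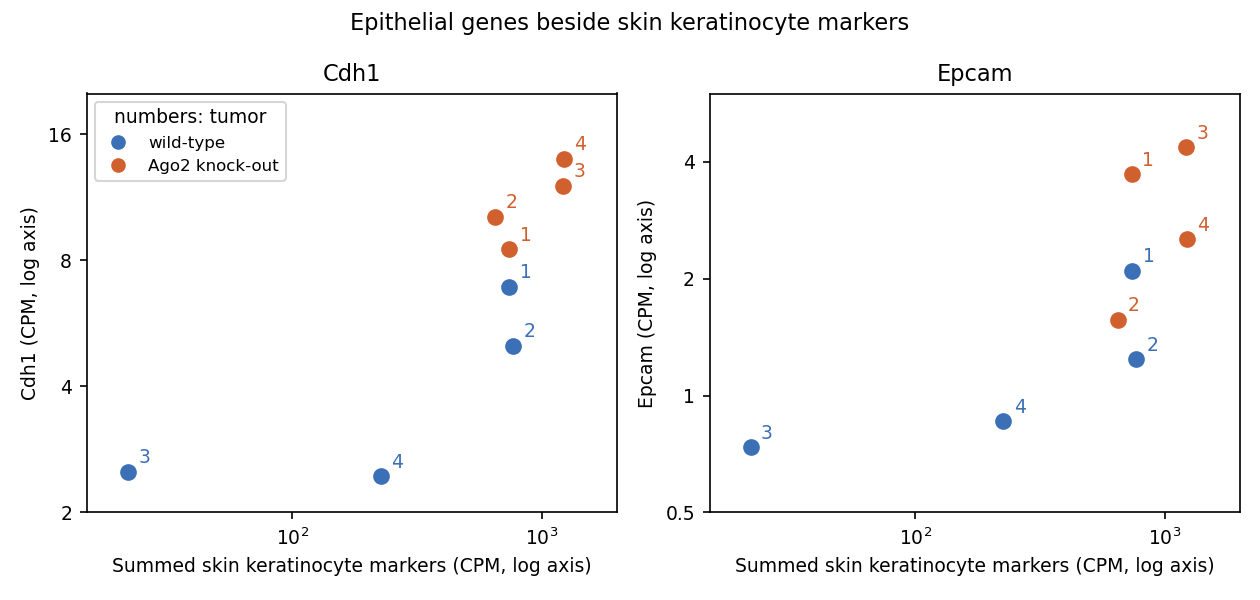
Cdh1 (left) and Epcam (right) in CPM against the summed level of 16 skin keratinocyte markers in CPM, both axes log, for 4 wild-type (blue) and 4 ΔAgo2 (orange) tumors, with the tumor number beside each point. Between 648 and 770 CPM of markers, the 2 ΔAgo2 tumors lie above the 2 wild-type tumors for Cdh1 but not for Epcam.

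Among the mesenchymal genes, 0 of 3 passed the edgeR test, 0 had an unadjusted p under 0.05, and 0 were called by DESeq2 or voom. Cdh2 (ENSMUSG00000024304.14, chr18:16588877-16809246, minus strand) was 18.05, 15.3, 15.6 and 7.74 CPM in wild-type and 5.27, 13.7, 12.5 and 11.1 CPM in ΔAgo2 tumors 1 to 4. In each group 3 libraries lie between 11.1 and 18.05 CPM, and wild-type tumor 4 and ΔAgo2 tumor 1 lie below them. The log2 fold change was −0.42 ± 0.34 (SE, 95% confidence interval −1.17 to 0.33, edgeR adjusted p = 0.436).

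Vim (ENSMUSG00000026728.9, chr2:13573927-13582826, plus strand) was among the most abundant transcripts of these tumors, 28th of all genes by median TPM. It was 6402, 4612, 6240 and 5354 CPM in wild-type and 7199, 5051, 6621 and 5550 CPM in ΔAgo2 tumors 1 to 4. The groups overlap almost fully, and the fitted ratio of ΔAgo2 to wild-type was 1.08, with a 95% confidence interval of 0.758 to 1.54 (log2 fold change 0.11, edgeR adjusted p = 0.780). Fn1 (ENSMUSG00000026193.15, chr1:71585520-71653200, minus strand) was 2363, 4445, 2623 and 3395 CPM in wild-type and 1527, 4537, 3619 and 3695 CPM in ΔAgo2 tumors. ΔAgo2 tumor 1 was lowest and ΔAgo2 tumor 2 highest of all 8, so the ΔAgo2 values enclose the wild-type ones. The fitted ratio was 1.04 (95% confidence interval 0.618 to 1.76, edgeR adjusted p = 0.925), and its direction turned under several settings.

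By level per length, the order of the 2 cadherins within a library differed between the groups. In TPM, which compares genes per length, Cdh2 was 6.38, 5.39, 5.57 and 1.93 in wild-type tumors 1 to 4 beside Cdh1 at 4.31, 3.12, 1.58 and 1.07. In ΔAgo2 tumors 1 to 4, Cdh2 was 1.43, 6.24, 4.90 and 4.68 TPM beside Cdh1 at 4.07, 8.13, 8.31 and 10.4. By TPM, Cdh2 was thus the higher cadherin in 4 of 4 wild-type libraries and in 0 of 4 ΔAgo2 libraries. In CPM, not divided by length (8066 bases for Cdh2, 4574 for Cdh1), Cdh2 was also the higher in ΔAgo2 tumors 2 and 3. It stood at 13.7 against 10.2 and at 12.5 against 12.1 CPM there, and was the lower in ΔAgo2 tumors 1 and 4. The difference of log2(TPM + 0.1), Cdh2 minus Cdh1, was 0.56, 0.77, 1.75 and 0.80 in wild-type and −1.45, −0.38, −0.75 and −1.14 in ΔAgo2 tumors, a mean of 0.97 ± 0.53 (SD, n = 4) and of −0.93 ± 0.46 (SD, n = 4). These are a description of 2 genes chosen with results known, and carry no test. The groups do not overlap in this difference. Wild-type tumors 1 and 2 lie above ΔAgo2 tumors 1 and 2, whose keratinocyte marker sums are near theirs only with Krt14 counted. Without Krt14 the sums were 423.0 and 413.2 CPM in these wild-type tumors and 510.3 and 444.3 CPM in these ΔAgo2 tumors. The part of keratinocyte RNA in the order of the cadherins was not tested. The fitted log2 fold change of Cdh2 minus that of Cdh1 was −1.80, and between −2.02 and −1.50 under the 23 alternatives.

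**Figure D3:**
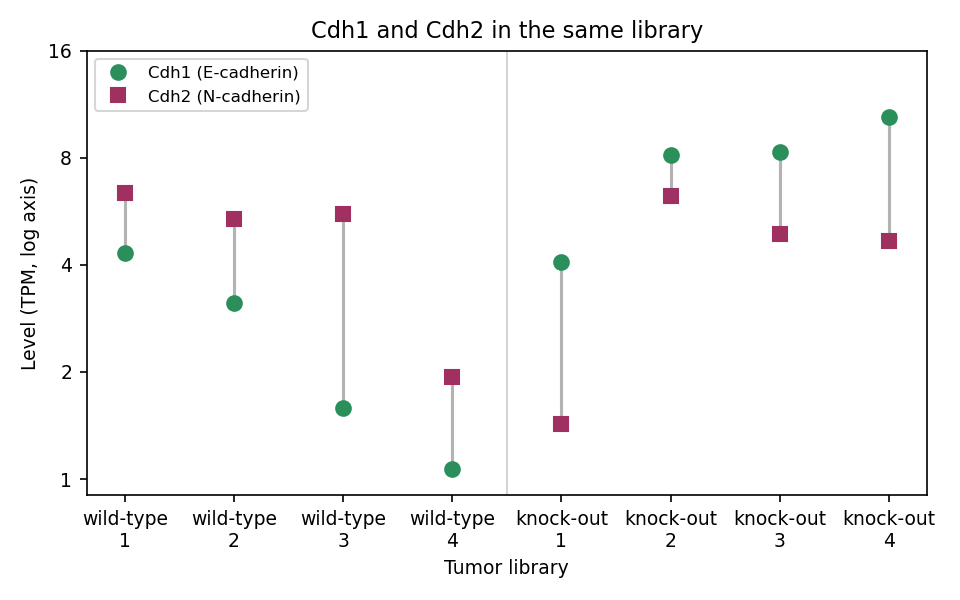
Cdh1 (green circles) and Cdh2 (purple squares) in TPM on a log axis in each of the 8 tumor libraries, joined by a line within a library. Cdh2 is the upper point in all 4 wild-type tumors and Cdh1 in all 4 ΔAgo2 tumors.

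Of the 5 transcription factors, Twist1 fell and the other 4 did not pass the test. Twist1 (ENSMUSG00000035799.6, chr12:33957671-33959829, plus strand) was 71.7, 84.0, 75.3 and 91.7 CPM in wild-type and 45.3, 39.7, 43.1 and 44.8 CPM in ΔAgo2 tumors 1 to 4. Both groups are tight, and the lowest wild-type tumor lies well above the highest ΔAgo2 tumor. The mean was 80.7 ± 8.995 CPM (SD, n = 4) against 43.2 ± 2.54 (SD, n = 4), and the fitted ratio of ΔAgo2 to wild-type was 0.536 (95% confidence interval 0.413 to 0.696, log2 fold change −0.90 ± 0.17 SE, edgeR adjusted p = 0.0225). The call was lost in 13 of 23 alternatives, among them without wild-type tumor 2 or 4 or ΔAgo2 tumor 2, 3 or 4 (edgeR adjusted p = 0.0720, 0.0570, 0.0879, 0.0788 and 0.108), and after correction for GC content, which took the log2 fold change to −0.36 (edgeR adjusted p = 0.258). Over the 23 alternatives it lay between −0.95 and −0.34, and without any 1 library between −0.94 and −0.83.

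Snai1 (ENSMUSG00000042821.7, chr2:167538195-167542814, plus strand) had the lower level in ΔAgo2 tumors in every library. It was 54.0, 106.9, 49.8 and 135.3 CPM in wild-type and 36.2, 31.9, 39.5 and 42.7 CPM in ΔAgo2 tumors 1 to 4. The ΔAgo2 values lie close together, whereas wild-type tumors 2 and 4 stand well above wild-type tumors 1 and 3, and the groups do not overlap. The fitted ratio was 0.435 (95% confidence interval 0.268 to 0.707, log2 fold change −1.20 ± 0.32 SE, edgeR adjusted p = 0.0637), and it passed the threshold in 5 of 23 alternatives. The log2 fold change ranged from −1.39 to −0.49 over these, with −0.49 after GC correction (edgeR adjusted p = 0.138). Snai2 (ENSMUSG00000022676.7, chr16:14705852-14709385, plus strand), the close relative of Snai1, was 3.73 to 9.23 CPM in wild-type and 2.32 to 5.29 CPM in ΔAgo2 tumors, which overlap. Its log2 fold change was −0.61 ± 0.37 (SE, edgeR adjusted p = 0.303).

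Neither Zeb factor passed the test. Zeb1 (ENSMUSG00000024238.15, chr18:5591860-5775467, plus strand) was 72.4, 53.0, 69.4 and 32.1 CPM in wild-type and 29.6, 78.8, 76.9 and 72.2 CPM in ΔAgo2 tumors 1 to 4. ΔAgo2 tumor 1 stood far below the other 3 of its group, and wild-type tumor 4 was lowest of its own. Its log2 fold change was 0.18 ± 0.34 (SE, 95% confidence interval −0.57 to 0.92, edgeR adjusted p = 0.757), and its direction turned under several settings. Zeb2 (ENSMUSG00000026872.18, chr2:44983632-45117395, minus strand) was 31.1, 30.3, 39.9 and 21.2 CPM in wild-type and 23.9, 83.5, 40.7 and 69.2 CPM in ΔAgo2 tumors 1 to 4. ΔAgo2 tumors 2 and 4 were highest, and ΔAgo2 tumor 1 lay within the wild-type range. Its log2 fold change was 0.82 ± 0.36 (SE, edgeR adjusted p = 0.175), and it was called in 1 of the 8 fits that leave out a library. In these fits it ran from 0.53 to 1.06, with edgeR adjusted p from 0.0434 (without ΔAgo2 tumor 1) to 0.441.

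Host cells also use several of these factors, and their markers are given beside them. Fibroblasts express Snai2, Twist1, Fn1 and Vim, and the summed level of 9 fibroblast markers was 966 to 1968 CPM in wild-type and 874 to 958 CPM in ΔAgo2 tumors, which do not overlap. Col1a1 carries that gap, since the other 8 markers summed to 462.3 to 863.3 and 566.4 to 760.3 CPM, which overlap. Of the 9, 4 had positive log2 fold changes, with a median of −0.16. EdgeR called 0 of the 9, DESeq2 1 and voom 4, against 3.49%, 14.3% and 27.9% of all genes. At an unadjusted p under 0.05 in edgeR, 2 were higher (Pdgfra and Dpt) and 2 lower (Col1a1 and Pi16). Macrophages express Zeb2, and the summed level of 9 macrophage and monocyte markers was 1364 to 1566 CPM in wild-type tumors and 2291, 1193, 1061 and 972 CPM in ΔAgo2 tumors 1 to 4. C1qa and C1qb make up most of the sum in ΔAgo2 tumor 1 (921.4 and 705.6 CPM), the lowest ΔAgo2 library in Zeb2. Ccr2 was highest in ΔAgo2 tumor 2 (102.1 CPM), the library highest in Zeb2, which among ΔAgo2 tumors was also highest in Adgre1, Csf1r and Mrc1. Cd68, Ly6c2 and Fcgr1 (155.0, 77.6 and 98.5 CPM), like C1qa and C1qb, were among ΔAgo2 tumors highest in tumor 1. Of the 9 markers, 4 had positive log2 fold changes, with a median of −0.04. The part of host cells in the differences of Twist1, Snai1 and Zeb2 was not tested.

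The factors differed in GC content, with which the genotype difference varied over all genes. Over all genes tested, the median log2 fold change went from 0.59 in the 3212 genes of lowest GC content to −0.53 in the 3211 of highest, when they were split into 5 equal parts. Snai1 and Twist1 had the highest GC content of the 10 genes, 59.8% and 59.3%, and Zeb2 and Snai2 the lowest, 40.6% and 42.6%. After each library's trend on GC content was removed, Twist1 had a log2 fold change of −0.36 (edgeR adjusted p = 0.258) and Snai1 of −0.49 (edgeR adjusted p = 0.138). Zeb2 then stood at 0.04 (edgeR adjusted p = 0.946), and Snai2 at −1.12, past the threshold (edgeR adjusted p = 0.0278). With this correction 1 of the 10 genes was called, Snai2 in place of Twist1, against 3.77% of 16059 genes tested, or 2.21% called lower. Cdh1 and Epcam, with 50.7% and 52.7% GC, hardly moved, at 1.38 (edgeR adjusted p = 0.0535) and 1.37 (edgeR adjusted p = 0.111). All 3 factors with negative values before correction, Snai1, Snai2 and Twist1, stayed negative after it, while Zeb1 went to −0.11 (edgeR adjusted p = 0.849).

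**Figure D4:**
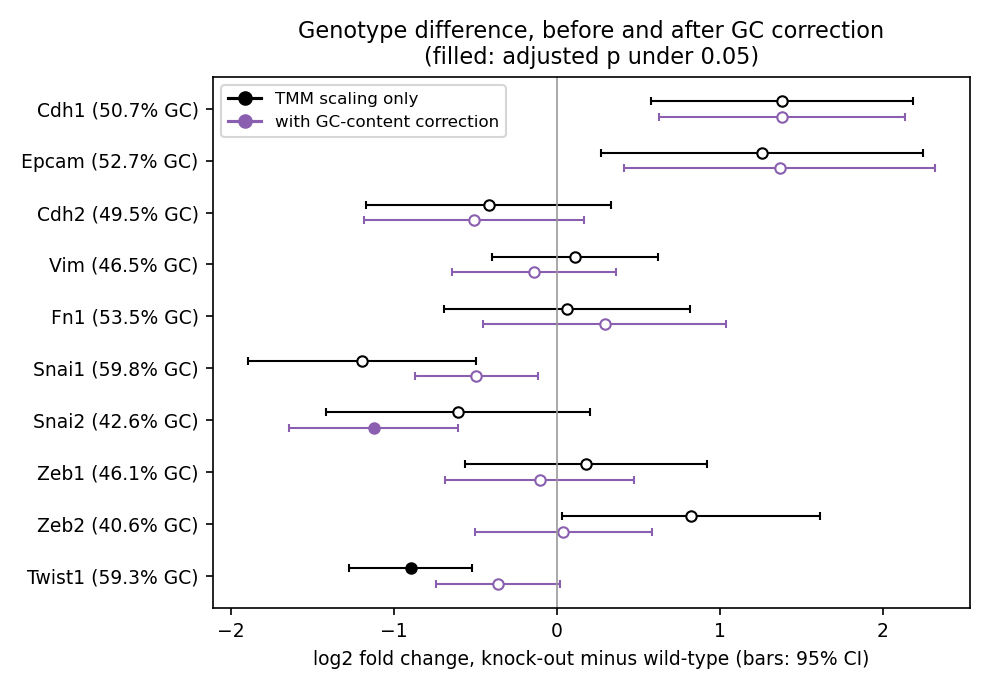
Log2 fold change of each gene, ΔAgo2 minus wild-type, with its 95% confidence interval, with TMM scaling only (black) and with GC-content correction (purple). Filled points passed an adjusted p of 0.05, which are Twist1 before and Snai2 after correction, while Cdh1 and Epcam keep nearly the same place.

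Levels per length put the mesenchymal products far above the cadherins. By median TPM over the 8 libraries the order was Vim (3820), Fn1 (811.5), Twist1 (104), Snai1 (89.0), Zeb1 (19.8), Snai2 (6.89), Cdh2 (5.14), Zeb2 (5.04), Cdh1 (4.19) and Epcam (2.67). Vim exceeded Fn1, Fn1 exceeded Twist1, and Snai1 exceeded Zeb1 in all 8 libraries with ranges that do not overlap. From Zeb1 downwards the ranges of neighbours overlap, as do those of Twist1 and Snai1, with Twist1 the higher in 6 of 8 libraries. Epcam was below Cdh1 in 8 of 8 libraries, while Cdh2 was above Zeb2 in 2 of 8. In these tumors Twist1 and Snai1 were thus the most abundant of the 5 factors, and both epithelial genes were at most 10.4 TPM in any library. The order differed within the groups. In wild-type tumors the median of Snai1 (131.6) was just above that of Twist1 (129.4), and in ΔAgo2 tumors Zeb2 (9.0) and Cdh1 (8.22) came before Snai2 (6.74) and Cdh2 (4.79).

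A wider list of 32 epithelial junction, keratin and regulator genes gave 1 call among 29 tested, near the 3.49% called over all genes. Ocln, which encodes the tight junction protein occludin, rose from a mean of 6.20 ± 3.86 CPM (SD, n = 4) to 25.3 ± 4.26 (SD, n = 4), a log2 fold change of 1.99 ± 0.43 (SE, edgeR adjusted p = 0.0368), with groups that do not overlap. The call was lost in 11 of 23 alternatives, with values from 1.49 to 2.50. The 2 wild-type tumors with few keratinocyte markers, 3 and 4, were the highest and the lowest of their group (10.7 and 1.43 CPM). Jup, encoding the junction protein plakoglobin, and Cldn4, encoding a claudin of tight junctions, had log2 fold changes of 1.05 and 1.53 and missed the threshold (edgeR adjusted p = 0.0707 and 0.0820). The median of the list was 0.81 against 0.04 over all genes tested, with 24 positive and 5 negative values, beside a median of 1.66 and 16 of 16 positive for the keratinocyte markers. Leaving out wild-type tumors 3 and 4 lowered the list's median to 0.51 and that of the keratinocyte markers to 0.86. With GC correction 5 of the 29 were called, all higher, against 3.77% of all genes called in either direction.

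Of 30 mesenchymal effector genes, all tested, 5 were called, 2 higher and 3 lower, with a median log2 fold change of −0.38, where 3.49% of all genes were called. Itgav, the alpha V integrin chain, rose from 42.2 ± 13.8 to 157.2 ± 58.6 CPM (SD, n = 4 each), by 1.89 on the log2 scale (edgeR adjusted p = 0.0124), a call lost in 7 of 23 alternatives. Cd44, the hyaluronan receptor, rose by 0.88 (edgeR adjusted p = 0.0492), a call lost in 16 of 23 alternatives, among them GC correction, which gave 0.48 (edgeR adjusted p = 0.0974). The matrix proteoglycan Bgn fell, at −1.29, the surface protease Fap, known from activated fibroblasts, fell, at −1.52, and the tropomyosin Tpm2 fell, at −1.31 (edgeR adjusted p = 0.0299, 0.0329 and 0.0474), with these calls lost in 11, 11 and 14 of 23 alternatives. Wild-type tumor 3 had the highest level of Bgn, Fap and Tpm2, and it was also highest in fibroblast and muscle markers. With wild-type tumors 3 and 4 left out, Bgn stood at −1.14, Fap at −1.08 and Tpm2 at −0.88 (edgeR adjusted p = 0.153, 0.164 and 0.231). That fit called 0.787% of all genes tested. With wild-type tumor 3 alone left out, 2 of the 30 were called lower and 3 higher, where 5.68% of all genes were called. Without any 1 library, Bgn lay between −1.50 and −1.12, Fap between −1.66 and −1.23 and Tpm2 between −1.60 and −1.13. Col1a1, Des and Ncam1 of this list are also on the lists of host cell markers.

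Among 32 other regulators of the transition, 30 were tested and 1 was called, again near the 3.49% over all genes. Hmga2, a chromatin protein, rose in ΔAgo2 tumors. It was 417.6, 269.6, 498.1 and 239.8 CPM in wild-type and 654.8, 1258, 1148 and 1203 CPM in ΔAgo2 tumors 1 to 4, which do not overlap, a log2 fold change of 1.58 ± 0.30 (SE, edgeR adjusted p = 0.0241). The call was lost in 11 of 23 alternatives, with values from 1.27 to 1.82 and adjusted p up to 0.196, and kept in 3 of the 8 fits that leave out a library. Fbxw7, part of a ubiquitin ligase, and Foxc2, a forkhead factor, had log2 fold changes of 0.81 and −1.49 and missed the threshold (edgeR adjusted p = 0.0557 and 0.0749). The median of the list was 0.03.

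Of 21 cadherins and cadherin partners, 15 were tested and 0 were called by edgeR, with 5 at an unadjusted p under 0.05 and a median log2 fold change of 0.22. DESeq2 called 1 and voom 2, against 14.3% and 27.9% of all genes. Jup, above, had the lowest p, followed by the adhesion molecules Nectin2 and Nectin1, at −0.80 and −0.71 (edgeR adjusted p = 0.134 and 0.156).

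The genes whose levels followed Cdh1 most closely over the 8 libraries were Tns4, Anxa8 and Krt78, by the root mean square distance of log2 CPM after each gene was centred on its mean. The distances were 0.28, 0.32 and 0.32, against a median of 1.00 over all genes tested. For Epcam the closest were Chil1, Krt78 and Apol9b, at 0.31, 0.34 and 0.39, and for Cdh2 they were Abcb1b, Exoc4 and Sipa1l1, at 0.15, 0.17 and 0.20. Krt78, a keratin, was close to both epithelial genes. No list gene was among the 3 closest to Cdh1, Epcam or Cdh2. The 8 libraries share the spread in depth and in GC trend described above, and these distances are a description.

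The genes with and without seed matches did not separate by direction. Of the 5 genes with a match, Fn1, Zeb1 and Zeb2 had positive log2 fold changes (0.06, 0.18 and 0.82) and Snai1 and Snai2 negative ones (−1.20 and −0.61). Of the 5 without, Cdh1, Epcam and Vim were positive (1.38, 1.26 and 0.11) and Cdh2 and Twist1 negative (−0.42 and −0.90). The gene with most matches, Zeb1, was among the 3 nearest to 0. These values are without GC correction, which lowered both Zeb1 and Zeb2 as given above. The microRNAs were not measured, and an effect of theirs on these genes was not tested.

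**Figure D5:**
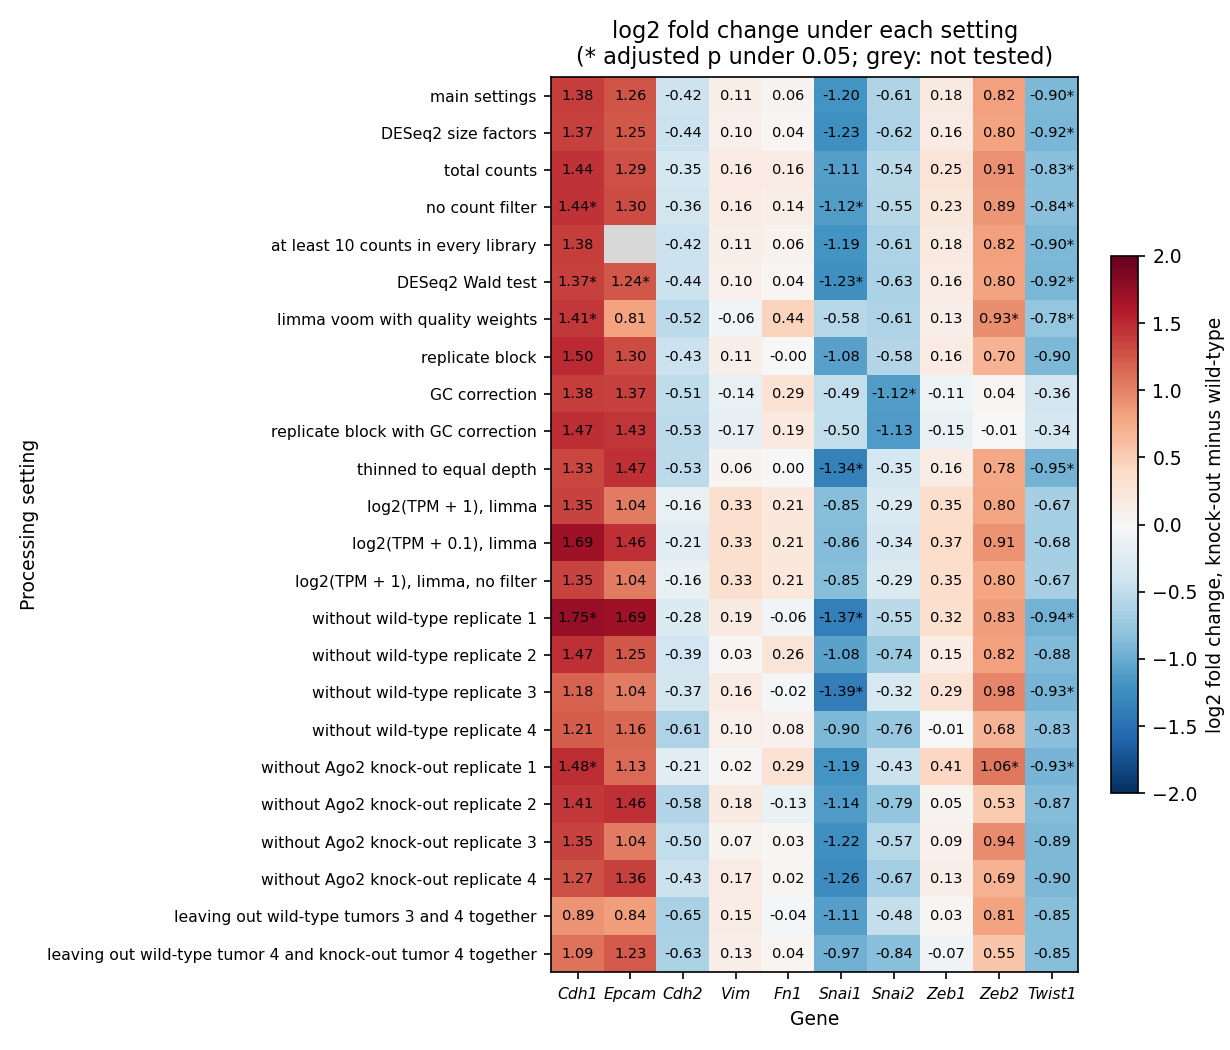
Log2 fold change of the 10 genes, ΔAgo2 minus wild-type, under the main settings and 23 alternatives, with color from blue (lower) to red (higher), a star where the adjusted p was under 0.05 and grey where the gene was not tested. Cdh1, Epcam, Cdh2, Snai1, Snai2 and Twist1 keep their sign in every row, while Vim, Fn1, Zeb1 and Zeb2 cross 0 in at least 1.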

How the data were processed

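Bulk RNA-seq was analysed from 4 wild-type and 4 ΔAgo2 LLC tumors, all with batch label 1 and grouped by title. Raw counts per gene (whole numbers, not normalized) were deposited, and TPM values deposited beside them are scaled by gene length. Submitters' processing notes name STAR and mm10. The study describes featureCounts for cultured cells, while annotation release and strand setting for the tumors were not given in the sources used here. Identifiers matched GENCODE M21 with version for 99.29% of rows, and Zeb2 without version.

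Counts were filtered (filterByExpr), scaled by TMM and compared with edgeR 4.0.16 in R 4.3.3 by the quasi-likelihood test, Benjamini-Hochberg adjusted over all genes tested, tested first on simulated data. DESeq2 1.42.0 and limma 3.58.1 were alternatives. CPM uses TMM-scaled totals. Confidence intervals and floors for counts cover the fitted spread between tumors and counting error respectively. P-values rest on the spread between tumors within both groups, and the ΔAgo2 tumors carry 1 clone.

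Genes named were the 10 members, Ago2, the 3 lowest p of each of 4 wider lists plus their calls where fewer than 6, defining markers, and the 3 nearest genes by profile. Other marker and list genes named were chosen after their values were seen. The members and lists were chosen with earlier results of these data known. Same-numbered tumors did not deviate together (correlations −0.24, 0.10, −0.04 and −0.29), so numbers were not treated as pairs. No libraries were duplicates. A seed-match result is not reported here.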

Additional observations from a re-analysis of the deposited data

Results flagged for a closer look

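In each group of 4 tumors, the gap between the highest or lowest library and its nearest neighbour was divided by the group's range, and 8 of 72 groups of values passed Dixon's 95% limit. Chance flags about 1 in 20, or 3.6 here. Among the 10 genes the 1 such case was Zeb1, at 29.6 CPM in ΔAgo2 tumor 1 against 72.2 to 78.8 in the other ΔAgo2 tumors. That tumor also had the highest sums in its group of macrophage and monocyte markers (2291 CPM against 972 to 1193) and of T and NK cell markers (46.2 against 17.1 to 21.7). Its sum of Cd207 and Cd1d1, mostly Cd1d1, was the highest as well (2.65 against 2.30 to 2.33). Wild-type tumor 3 stood apart in Bgn (290.2 CPM against 192.8 to 199.2) and in skeletal muscle markers (3235 against 233.5 to 439). Endothelial markers were lowest in wild-type tumor 1 (123.7 CPM against 182.9 to 192.5) and in ΔAgo2 tumor 2 (121.5 against 155.5 to 160.9). The part of these libraries in the genotype differences was not tested beyond the fits that leave each out.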

How the results depend on the processing

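Genes called numbered 560 with the settings reported, 1 of them among the 10 genes and 7 in the wider lists. The counts in that order were 983, 3 and 11 with no count filter, 2292, 4 and 20 by the DESeq2 Wald test, 4476, 3 and 44 by limma voom with quality weights, 153, 0 and 0 on log2(TPM + 1), 107, 0 and 0 on log2(TPM + 0.1), 77, 0 and 0 on log2(TPM + 1) with no filter, 134, 0 and 3 leaving out wild-type tumors 3 and 4, and 52, 0 and 0 leaving out wild-type tumor 4 and ΔAgo2 tumor 4 (the last 2 were chosen after the data were seen). With a replicate block they were 70, 0 and 0, and with the block and GC correction 311, 0 and 7; the tumors share only a number. Thinned to equal depth, 2 of the 10 genes were called, against 3.84% of all genes. Leaving out each library gave 88 to 1793 genes, 0 to 3 of the 10 and 0 to 13 in the wider lists: without wild-type tumors 2, 3 and 4 there were 143, 934 and 265 genes, and without ΔAgo2 tumors 1, 2 and 4 there were 1793, 166 and 88 (0.902% of genes tested without ΔAgo2 tumor 3, against 3.49%). Groups not overlapping numbered 3 of the 10 genes in CPM and 1 in TPM. Among fits that kept all libraries, signs turned for Vim by voom (−0.056), by GC correction (−0.14) and by block with GC correction (−0.17), for Fn1 by block (−0.0022), for Zeb1 by GC correction (−0.11) and block with GC correction (−0.15), and for Zeb2 by block with GC correction (−0.0086). Leaving out wild-type tumors 3 and 4 turned Fn1 (−0.040), leaving out wild-type tumor 4 and ΔAgo2 tumor 4 turned Zeb1 (−0.069), and leaving out single libraries gave −0.13 to 0.29 for Fn1 and −0.014 to 0.41 for Zeb1. The cause was not tested. With log2(TPM + 1) the Cdh2 minus Cdh1 difference between groups was −1.50 in place of −1.90. Epcam was not tested at 10 counts in every library, and 6 to 112 counts in wild-type libraries limit its precision.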

Other observations

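The simple epithelial keratins Krt7, Krt8, Krt18 and Krt19, named here after their values were seen, did not pass the test and differed in direction. Krt8 was 231.0 to 400.9 CPM in wild-type and 323.0 to 501.2 in ΔAgo2 tumors, with a log2 fold change of 0.43 (edgeR adjusted p = 0.287). Krt18 was 257.3 to 845.3 CPM in wild-type and 379.6 to 726.6 in ΔAgo2 tumors, with a log2 fold change of 0.11 (edgeR adjusted p = 0.873). Krt7 and Krt19, at far lower levels, had negative log2 fold changes, −1.15 and −0.41 (edgeR adjusted p = 0.236 and 0.654).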
